A study of Mus musculus with 5 samples.

Results

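Back skin of Xpa mutant mice 3 h after ultraviolet B (UVB) was compared with unirradiated back skin of wild-type (WT) mice, with 1 one-colour CodeLink oligonucleotide array on each side. The mice were of a hairless albino strain, the labels used here give no age, and the dose was 1 kJ per square metre. Genotype and UVB differ together in this comparison, so their shares in a difference cannot be told apart. Mutant skin without UVB was not analysed here. The study also profiled WT skin at 3 h and 24 h and Xpa mutant skin at 24 h after the same dose, 1 array each, 5 arrays in all, and those arrays are used below to place the values. The sources used here do not say which allele the mutants carried, or whether the RNA of 1 mouse or of several was put on an array.

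A gene probe entered when it was not masked by the scanner software on either array and was above background on at least 1 of them. Of 34967 gene probes, 9787 met this rule, 25069 were below background on both arrays and 111 were masked on either. After 42 probes with an irregular spot were left out, the remaining probes stood for 7138 named genes, each represented by its brightest probe, while 2027 probes had no single gene name and were not used further. A level below is the log2 of the background-corrected, quantile-normalized intensity, so a difference of 1 is 2-fold. With 1 array on each side there is no standard error, test or p-value, and each difference compares 2 arrays.

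Xpa encodes a damage-verification factor of nucleotide excision repair, the pathway that removes the pyrimidine dimers made by UVB. Irradiated keratinocytes are known to switch on immediate-early transcription factors, chemokines that call in neutrophils and monocytes, and keratins and envelope proteins of activated epidermis. Skin also holds hair follicles, whose growing bulbs make hair keratins and keratin-associated proteins, and a dermis rich in fibrillar collagen. The study concerns Cxcl1, a neutrophil attractant, in UVB inflammation of the mutants.

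The targeted gene was read first. Xpa had a level of 7.49 in unirradiated WT skin and 6.64 on the mutant array at 3 h, where it was below background, which makes it at least 1.34-fold lower. The other arrays gave 7.13 in WT at 3 h, also below background, 7.55 in WT at 24 h and 6.42 in the mutant at 24 h, so both mutant arrays lay below all 3 WT arrays. Where the probe lies relative to the mutation is not known here, and the probe is dim, so this is a weak check of the labels. Keratinocyte markers were above background on both arrays. Krt14 of the basal layer had levels of 12.60 and 12.37, and Krt10 of the layers above it 14.02 and 14.02, on the unirradiated and mutant arrays.

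On the mutant array 125 of the 7138 genes lay at least 2-fold above their unirradiated WT level (1.75%), and 94 lay at least 2-fold below it (1.32%). The median log2 difference over the 7138 genes was -0.01, and 49.0% of them lay above 0. Most of the genes past 2-fold were below background on one side, 102 of the 125 and 77 of the 94. For such a gene the fold is given as a bound, the bright array's value set against the lowest value that counted as above background on the dim array or the dim value itself, whichever is higher. That bound reached 2-fold for 46 higher and 5 lower genes. Above background on both arrays were 5488 genes, of which 23 were higher and 17 lower. The spread of the differences, a robust SD, was 0.27 for those genes and 0.69 for genes dim on one side. The control probes spotted many times on each array had a median SD of 0.13 between spots of an array, which measures the array only and not the mice. The scanner marked 64 of the 219 genes with a contaminated local background on at least one of the compared arrays.

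**Figure D1:**
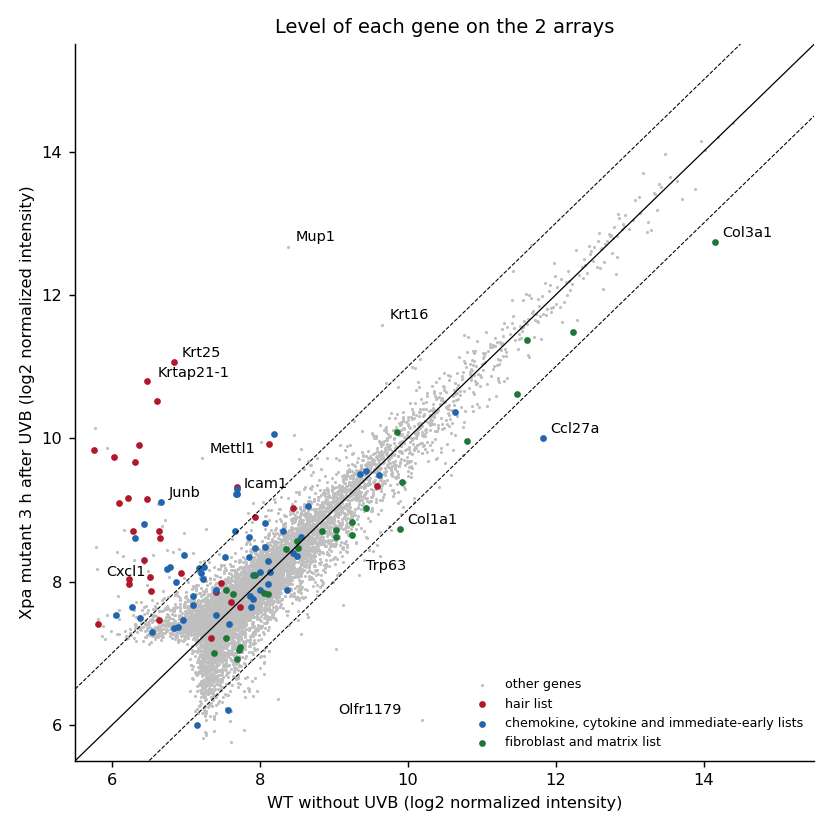
Each point is 1 of 7138 genes, with its log2 normalized intensity in WT skin without UVB (x axis) and on the Xpa mutant array at 3 h (y axis). The solid line marks equal levels, the dashed lines 2-fold. Most hair genes (red) lie above the upper dashed line at the left, Mup1 stands alone at 8.38 and 12.67, and Col3a1 and Ccl27a lie below the lower dashed line.

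Hair genes made up the group with the largest differences. Of 52 hair follicle and hair keratin genes listed, 38 were on the array, and in the mutant 22 of these were higher by 2-fold or more and none was lower. Their median log2 difference was 1.58, against 0.01 over 18474 genes taken without a filter on dim probes, of which 1.04% were higher and 0.817% lower. The filter passed 31 of the 38, 21 of them only through the mutant array, which selects for genes high on that array, and the median of 1.79 over these 31 is given with that limit. Among the 9 above background on both arrays the median was 0.50, and Krtap14 and Krtap3-3 were the 2 past 2-fold. The remaining 7 genes, among them the follicle regulators Hoxc13 and Foxn1, were below background on both arrays.

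The inner root sheath keratins, which form the sheath that moulds the growing hair, included the gene with the largest bound. Krt25 had a level of 6.84 on the unirradiated array, below background, and 11.06 on the mutant array, at least 16.6-fold higher. Krt71 had 5.76, below background, and 9.83, at least 7.06-fold higher. For Krt73 the bound was 4.44-fold and for Krt27 2.04-fold. The keratins of the hair shaft itself were Krt86, at least 7.45-fold higher, Krt33a, at least 6.62-fold, Krt34, at least 3.23-fold, and Krt33b, at least 3.25-fold.

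The keratin-associated proteins, which cross-link hair keratin filaments, differed as much. Krtap21-1 had a level of 6.47, below background, on the unirradiated array and 10.80 on the mutant array, at least 13.8-fold higher. Krtap19-2 had levels of 6.61, below background, and 10.52, at least 11.4-fold. Krtap14, bright on both arrays, had 8.13 and 9.92, a 3.46-fold difference, and Krtap3-3 had 7.69 and 9.32, a 3.10-fold difference. By symbol alone, a grouping made after the values were seen, 31 genes named Krtap were on the array. Of these 26 passed the filter, 19 of them only through the mutant array, which selects for genes high on that array. At least 2-fold higher were 21 of the 26, against 1.75% of all genes, and the count is given with that limit. Many Krtap genes are near-identical copies whose RNA a probe may share, so single members are uncertain. Gm11563, with levels of 5.77 and 10.15, was at least 8.80-fold higher and lies on chromosome 11, as do Krt25 and Krtap3-3.

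Other hair genes differed by less than 2-fold. Krt31, a shaft keratin, had levels of 8.45 and 9.02, and Krt84 had 7.73 and 7.65. Msx2, a transcription factor of the hair matrix, had 7.40 and 7.86. Lef1, a Wnt effector of the hair matrix, had 7.34 and, below background, 7.22. These differences lay between 1.06-fold and 1.49-fold, and Krt75, of the companion layer, had a log2 difference of -0.24.

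The 3 promoters below are those of hair genes with some of the largest bounds and a TATAAA match. They are the 250 bases before the annotated start, from RefSeq on GRCm38.p6, all on the minus strand, at chr11:99322952-99323201 for Krt25, chr16:89403775-89404024 for Krtap21-1 and chr15:101743098-101743347 for Krt71. Capitals mark the TATAAA match, whose first base lies 30, 61 and 40 bases before the start.
Krt25: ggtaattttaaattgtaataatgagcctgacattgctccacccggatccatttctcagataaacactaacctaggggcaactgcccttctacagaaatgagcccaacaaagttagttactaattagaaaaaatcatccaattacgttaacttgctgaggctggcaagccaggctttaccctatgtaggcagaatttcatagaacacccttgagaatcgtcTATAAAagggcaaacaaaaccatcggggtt
Krtap21-1: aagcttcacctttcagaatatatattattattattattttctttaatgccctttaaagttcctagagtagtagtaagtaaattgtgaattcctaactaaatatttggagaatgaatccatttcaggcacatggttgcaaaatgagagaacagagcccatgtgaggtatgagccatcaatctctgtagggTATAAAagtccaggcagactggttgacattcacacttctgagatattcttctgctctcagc
Krt71: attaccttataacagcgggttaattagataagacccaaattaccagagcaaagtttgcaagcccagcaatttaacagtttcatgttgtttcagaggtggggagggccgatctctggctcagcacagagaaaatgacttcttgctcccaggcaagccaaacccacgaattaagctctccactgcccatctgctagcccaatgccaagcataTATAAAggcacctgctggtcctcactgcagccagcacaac

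TATAAA, sought on either strand in the 250 bases, was found in 13 of the 20 higher hair genes that had a promoter in the table (65%). It was found in 26 of 42 hair genes listed, higher or not, and in 7.59% of all 32851 promoters. Among the genes compared 5.22% held it, and among the higher genes outside the hair list 20 of 79. That group still holds Krtap genes not on the list, and without them it was 12 of 71 (16.9%). A match describes these letters and not a working site.

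On the other arrays the hair genes were dimmer. Over the 38 genes the median level was 6.52 in WT without UVB, 7.21 in WT at 3 h, 8.21 in the mutant at 3 h, 6.64 in WT at 24 h and 6.95 in the mutant at 24 h. The mutant array at 3 h therefore had the highest median of the 5, and WT at 3 h the next. Krt25 had 9.69 in WT at 3 h, 7.98 in WT at 24 h and 9.41 in the mutant at 24 h, all below its 11.06 in the mutant at 3 h. Krtap19-2 had 7.18 in WT at 3 h, below background, and 6.27 and 6.53 at 24 h. In the WT comparison at 3 h, which shares the unirradiated array, 163 of 7179 genes were higher (2.27%) and 90 were lower (1.25%). There 9 of the 20 hair genes compared were higher. The mice were of a hairless strain, and the state of the follicles and the hair cycle stage of each piece of skin are unknown here. The part of strain, follicle state and hair cycle in these differences was not tested.

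**Figure D2:**
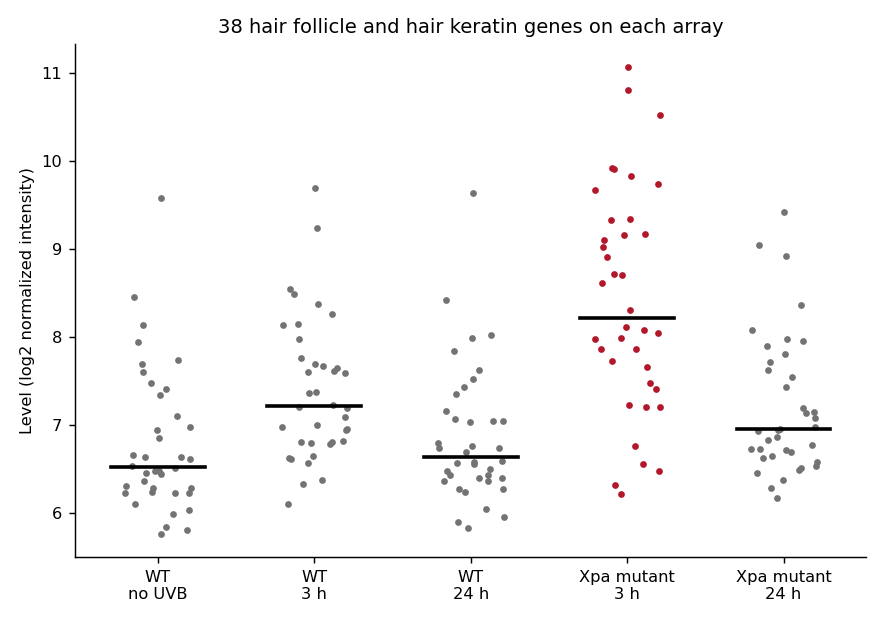
Each point is 1 of the 38 hair follicle and hair keratin genes on the array, the y axis is its log2 normalized intensity, and black bars are medians over the genes. The bar stands at 8.21 on the Xpa mutant array at 3 h (red), and between 6.52 and 7.21 on the other 4 arrays (grey).

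Mup1, a lipocalin known as a carrier of small hydrophobic molecules in mouse urine, had the largest fold among genes above background on both arrays. Its level was 8.38 on the unirradiated array and 12.67 on the mutant array, 19.6-fold higher. The other arrays gave 10.85 in WT at 3 h, 9.77 in WT at 24 h and 12.27 in the mutant at 24 h, so both mutant arrays lay above all 3 WT arrays. A second Mup1 probe was below background on both compared arrays, and the Mup genes are near-identical copies that a probe may not separate. Mettl1, which methylates transfer RNA, was next, with 7.22 and 9.72, 5.67-fold higher. Its local background was flagged on the unirradiated array, and the other 3 arrays lay between 7.54 and 7.93.

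Chemokines were among the higher genes, with Cxcl1 on the list of neutrophil attractants. Cxcl1 had a level of 6.75, below background, on the unirradiated array and 8.17 on the mutant array, at least 2.24-fold higher. Its level was 8.72 in WT at 3 h, 8.35 in WT at 24 h and 9.27 in the mutant at 24 h. Cxcl2, which binds the same receptor, had 6.54, below background, and 7.30, with a bound of 1.22-fold, and 8.19 in WT at 3 h. Both attractants were thus lower in the mutant than in WT skin of the same time. Cxcl3, Cxcl5 and their receptor Cxcr2 were below background on both compared arrays. Of the 7 genes of this list, 4 were compared, and Cxcl15 was on the other side, at 7.57 and 6.21, with a bound of 1.42-fold.

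Of 28 CC and other chemokines on the array, 14 were compared, 5 were higher, against 1.75% of all genes, and 1 was lower. The 5 higher genes passed the filter only through the mutant array, and over the 8 above background on both arrays the median was 0.12. Ccl20, which attracts Ccr6-bearing cells, had 6.43, below background, and 8.81, at least 3.47-fold higher. The monocyte attractants Ccl7, at 6.31 and 8.61, and Ccl2, at 6.78 and 8.20, were at least 3.03-fold and 2.28-fold higher from below background. Their levels in WT at 3 h were 9.27 and 9.11. Xcl1 and Ccl9, below background without UVB, had bounds of 1.43-fold and 1.55-fold. Over the 28 genes, without a filter, the median log2 difference was 0.21. Ccl19, which guides dendritic and T cells, had 9.43 and 9.55, whereas WT at 3 h had 11.48.

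Of 33 cytokines and inflammatory mediators on the array, 16 were compared, 5 were higher, against 1.75% of all genes, and 1 was lower. Of the 16, 8 lay above 0 and 8 below, and 4 passed the filter only through the mutant array. The median was 0.07, and -0.05 over the 11 above background on both arrays. Icam1, an adhesion molecule for leukocytes, had 7.68 and 9.23, 2.93-fold higher, and the Tweak receptor Tnfrsf12a had 7.69 and 9.23, 2.91-fold higher. Socs3, a feedback inhibitor of interleukin 6 signalling, had 6.97, below background, and 8.37, at least 2.57-fold higher. Interleukin 6 itself, Il6, had 6.38, below background, and 7.50, with a bound of 1.40-fold. Icam1, Socs3 and Il6 each had a higher level in WT at 3 h, 10.05, 8.90 and 8.38. Il1b, Tnf and Ptgs2 were below background on both compared arrays. Il1a had 7.15 and, below background, 6.0, and its bound of 1.07-fold leaves the size of its difference unmeasured. None of the 11 NF-kB pathway and feedback genes compared was past 2-fold.

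Of 32 immediate-early genes on the array, 22 were compared and 5 of these were higher, against 1.75% of all genes, and 5 of the 22 passed the filter only through the mutant array. Junb, a subunit of the AP-1 transcription factor, had 6.67, below background, and 9.10, at least 4.27-fold higher. Ier3, a stress-induced survival gene, had 8.19 and 10.06, 3.65-fold higher. Zfp36, which destabilizes cytokine messages, had 7.69 and 9.29, a 3.03-fold difference. The WT array at 3 h gave 9.35, 10.45 and 9.28 for Junb, Ier3 and Zfp36. Dusp6, a phosphatase of the ERK kinases, had 7.66 and 8.71, 2.08-fold higher, and 9.65 in WT at 3 h. Fos was at least 2.02-fold higher, and Jun had a log2 difference of -0.13. Without background correction Dusp6 was less than 2-fold higher, with a log2 difference of 0.92. Over the 32 genes without a filter the median was 0.50, and over the 17 above background on both arrays it was 0.42. Cebpd, a transcription factor of the acute phase response that is not on the list, had 8.46 and 10.04, 2.99-fold higher. Of 14 genes of the EGF receptor family and its ligands, 8 were compared, with 4 above 0 and 4 below and a median of 0.06. The ligand Hbegf was at least 2.66-fold higher, at 6.83, below background, and 8.42. The receptor gene Erbb2 had 7.37 and, below background, 6.35, lower with a bound of 1.24-fold.

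Cxcl1 and Ier3 are shown with their promoters because a match to the NF-kB consensus lies near the start. Both are the 250 bases before the start on the plus strand of GRCm38.p6, from RefSeq, at chr5:90890995-90891244 for Cxcl1 and chr17:35821463-35821712 for Ier3. Capitals mark the match, whose first base lies 71 bases before the start of Cxcl1 and 92 before that of Ier3.
Cxcl1: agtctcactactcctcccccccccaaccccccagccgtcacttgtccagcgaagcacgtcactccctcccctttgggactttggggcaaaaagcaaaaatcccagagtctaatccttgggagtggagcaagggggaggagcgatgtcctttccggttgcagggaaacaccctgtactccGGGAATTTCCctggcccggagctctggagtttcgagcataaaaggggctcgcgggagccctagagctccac
Ier3: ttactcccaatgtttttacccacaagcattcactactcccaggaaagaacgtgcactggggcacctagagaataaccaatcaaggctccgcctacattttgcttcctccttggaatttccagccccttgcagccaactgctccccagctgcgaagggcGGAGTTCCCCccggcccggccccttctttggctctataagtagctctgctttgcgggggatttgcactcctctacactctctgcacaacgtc

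The NF-kB consensus, sought on both strands, was found in 6 of the 79 promoters of higher genes outside the hair list (7.59%), against 3.90% of all promoters and 4.47% of those of the genes compared. It was in none of the 20 higher hair genes. The AP-1 motif TGANTCA was found in 13 of the 79 (16.5%), in 6.75% of all promoters and in 5.14% of those compared. In the 74 promoters of lower genes each of these motifs was found in 2.

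Of the 4 stress keratins of activated epidermis 2 were at least 2-fold higher, against 1.75% of all genes. Krt16 had 9.66 and 11.59, 3.81-fold higher, and Krt6a, its partner in activated keratinocytes, had 7.72 and 9.24, 2.87-fold higher. WT at 3 h gave 12.54 and 9.30. Krt17 had a log2 difference of 0.41, and Krt6b had 7.94 and, below background, 7.26, at least 1.60-fold lower. Of 12 small proline-rich genes, which encode cross-linked envelope proteins, 7 were compared and 2 were higher, against 1.75% of all genes. Sprr2h had 8.01 and 9.95, 3.84-fold higher, and 10.86 in WT at 3 h. The other was Sprr2j-ps, with a bound of 1.70-fold, a pseudogene of the same family whose probe may share RNA with its copies. Slpi, a protease inhibitor of inflamed epithelium, had 6.30, below background, and 8.31, at least 2.46-fold higher, and 9.16 in WT at 3 h. Mt1, a metallothionein that binds zinc, had 11.66 and 12.69, 2.04-fold higher, and 13.64 in WT at 3 h. S100a8 and Saa3, alarmin and acute phase genes, had bounds of 1.20-fold and 1.64-fold, and neither stayed past 2-fold without background correction. With Slpi they were the 3 higher genes of the 15 alarmin, antimicrobial and acute phase genes compared, against 1.75% of all genes, and all 3 passed the filter only through the mutant array. Over the 12 above background on both arrays the median was 0.04.

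**Figure D3:**
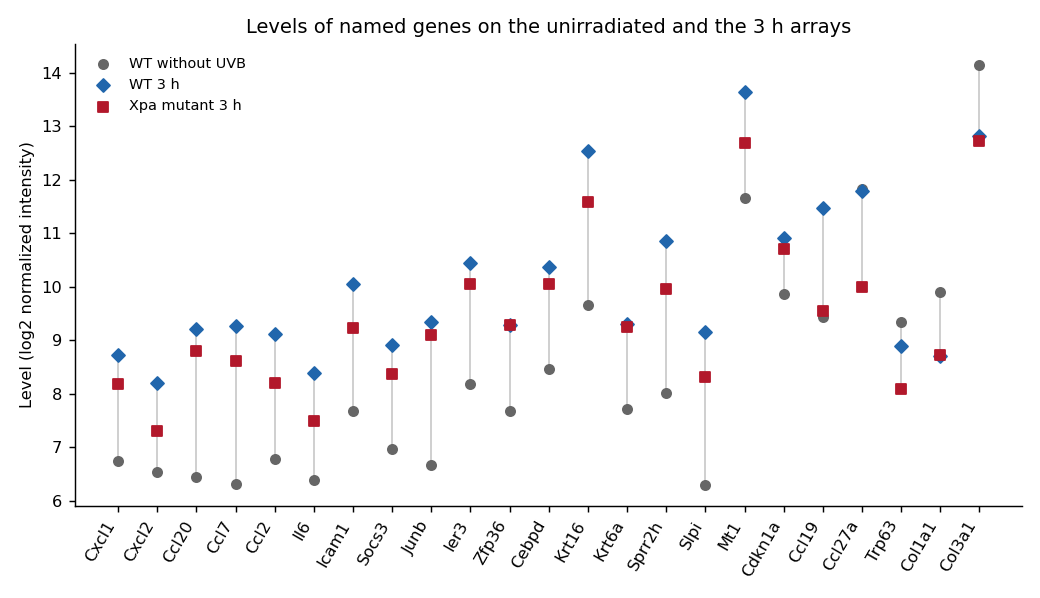
Log2 normalized intensity (y axis) of named genes (x axis) on the unirradiated WT array (grey circles), the WT array at 3 h (blue diamonds) and the Xpa mutant array at 3 h (red squares). For Cxcl1, Icam1, Krt16 and Mt1 the red square lies between the other symbols, and for Ccl27a and Trp63 it lies below both.

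The DNA damage groups were read beside the shares over all genes, 1.75% higher and 1.32% lower. Cdkn1a, the p53-induced inhibitor of cyclin-dependent kinases, had 9.86 and 10.71, 1.80-fold higher, and 10.92 in WT at 3 h. Of 20 p53 target genes compared none was at least 2-fold higher. Of the 20, 12 lay above 0, with a median of 0.21, and the median was 0.32 over the 30 on the array without a filter. In the WT comparison at 3 h, 5 of 20 were higher, against 2.27% of all genes there, and 1 was lower, against 1.25%. The median of the p53 targets in that comparison was 0.14. On the mutant array Sesn1, a stress-induced regulator of metabolism, was at least 2.01-fold lower, at 8.40 and, below background, 7.39. Mdm2, the ubiquitin ligase of p53, was below background on both arrays. Of 17 nucleotide excision repair genes compared, Ccnh, Rpa1 and Ercc4 had log2 differences of 1.50, -1.40 and -1.13, but their bounds were 1.30-fold, 1.16-fold and 1.15-fold. The median over the 29 excision repair genes on the array was -0.01 without a filter. Mre11a, a nuclease of double-strand break repair, had 8.24 and, below background, 6.37, at least 2.26-fold lower, and its second probe was below background on both arrays.

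The lower genes were led by Ccl27a, a keratinocyte chemokine for skin-homing T cells. Its level was 11.82 on the unirradiated array and 10.00 on the mutant array, 3.54-fold lower. WT had 11.80 at 3 h and 10.03 at 24 h, and the mutant had 8.15 at 24 h, so at each time the mutant array lay below the WT array. Il11ra1, an interleukin 11 receptor, had 10.58 and 9.49, 2.14-fold lower, and its second probe had a log2 difference of -0.47. Il11ra1 and Ccl27a lie beside each other on chromosome 4 in a region of near-identical gene copies, and Xpa lies on the same chromosome. In the order of compared genes, Ccl27a is 21 and Il11ra1 22 genes before Xpa, and Mup1 is 22 genes after it. Over the 80 compared genes nearest to Xpa the median log2 difference was -0.02, and 1 was higher and 3 were lower. Over chromosome 4, 7 of 447 genes were lower (1.57%), against 1.30% on the other chromosomes. Whether their position bears on the values of Ccl27a, Il11ra1 and Mup1 was not tested.

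The fibrillar collagen genes Col3a1 and Col1a1 were lower. Col3a1 had 14.15 and 12.73, 2.67-fold lower, and Col1a1 had 9.90 and 8.73, 2.25-fold lower. WT at 3 h had 12.83 and 8.71, close to the mutant levels. Of 27 fibroblast and matrix genes compared, these were the 2 past 2-fold, against 1.32% of all genes lower. Of the 27, 21 lay below 0 and 6 above, and the median was -0.37. Their summed intensity was 40204 on the unirradiated array, 22613 on the mutant array and 23752 in WT at 3 h. Col3a1 alone made up a large part of these sums, so they follow that gene more than the list. In such bulk skin, fewer cells of a type and less RNA per cell cannot be told apart.

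Of the genes of the basal and differentiating epidermis few were past 2-fold. Trp63, the master transcription factor of basal keratinocytes, had 9.33 and 8.09, 2.37-fold lower, and 8.90 in WT at 3 h. Its local background was flagged on the unirradiated array, and a second probe, below background on both arrays, brings the median over its probes to -0.34. Zfp750, a differentiation factor that acts below p63, had 9.53 and 8.43, 2.14-fold lower, and 9.01 in WT at 3 h. Of 13 basal keratinocyte genes compared 11 lay below 0, with a median of -0.22. Trp63 was the 1 past 2-fold, against 1.32% of all genes lower. Of 35 cornified layer genes 27 lay below 0 and none was past 2-fold, with a median of -0.20. Over all genes compared 49.0% lay above 0. The robust SD of 0.27 given above is a spread of single genes and does not measure that of a list median. Krt2, on the cornified list, had a log2 difference of 0.96 with a bound of 1.42-fold. In the sebaceous list of 11, 3 were lower, against 1.32% of all genes, 8 lay below 0, and the median was -0.22. Far2, which makes fatty alcohols, was 2.11-fold lower, at 9.58 and 8.51. Scd3 and Pparg, below background on the mutant array, had bounds of 1.86-fold and 1.27-fold. Sox21, a transcription factor known from hair differentiation, was at least 2.09-fold lower, at 8.12 and, below background, 7.03.

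With the median of a gene's probes in place of its brightest probe, Trp63, Il11ra1, Mre11a, Atf7ip, Far2, Sesn1, Srebf2 and Cxcl15 were less than 2-fold lower, with log2 differences between -0.99 and -0.34. Mb was less than 2-fold higher, at 0.92. With scaling to the 75th percentile Gtf3c6 was at -0.99 and Il11ra1 at -0.95.

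Other lower genes belonged to none of the lists. Exoc6b, of the vesicle-tethering exocyst, had 9.12 and 7.67, 2.72-fold lower. Cachd1 was 2.45-fold lower, Tuft1 2.41-fold, Atf7ip 2.22-fold, Slco3a1 2.15-fold and Gtf3c6 2.14-fold. Tuft1, Slco3a1 and Gtf3c6 had levels of 8.56, 8.26 and 9.22 in WT at 3 h, near their 8.36, 8.30 and 9.32 in the mutant at 3 h. Lmtk2, a membrane kinase, was at least 3.90-fold lower, at 9.02 and, below background, 7.06. Olfr1179, an odorant receptor gene, had 10.19 on the unirradiated array and between 5.90 and 6.51 on the other 4, below background on the mutant array at 3 h, and it was at least 8.74-fold lower. Its local background was flagged on the unirradiated array. That value rests on 1 spot of the shared reference array.

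Markers of other cell types were read beside these groups. Genes of skeletal muscle, a tissue that lies under back skin, were above background on both arrays in 20 of 26 cases. Of 21 compared 14 lay above 0, with a median of 0.28 and a summed intensity of 85760 on the unirradiated and 94016 on the mutant array. The 2 past 2-fold were both higher, against 1.75% of all genes. Tnnt1, below background without UVB, had a bound of 1.18-fold. Myoglobin, Mb, had 9.71 and 10.77, 2.08-fold higher, and its second probe had a log2 difference of 0.79. Of 15 macrophage genes on the array, 5 were compared and all 5 lay above 0, with a median of 0.59. Over the 15 genes without a filter the median was 0.19. The complement gene C1qb had 7.81 and 8.69, 1.84-fold higher, and 8.39 in WT at 3 h. Of 20 neutrophil genes 18 were below background on both arrays, among them Mpo, Elane and Ngp. The 4 red blood cell genes and 8 of 9 melanocyte genes, Tyr, Dct and Pmel among them, were also below background on both. The part of muscle, fat or follicle content of the skin pieces in the differences above was not tested.

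**Figure D4:**
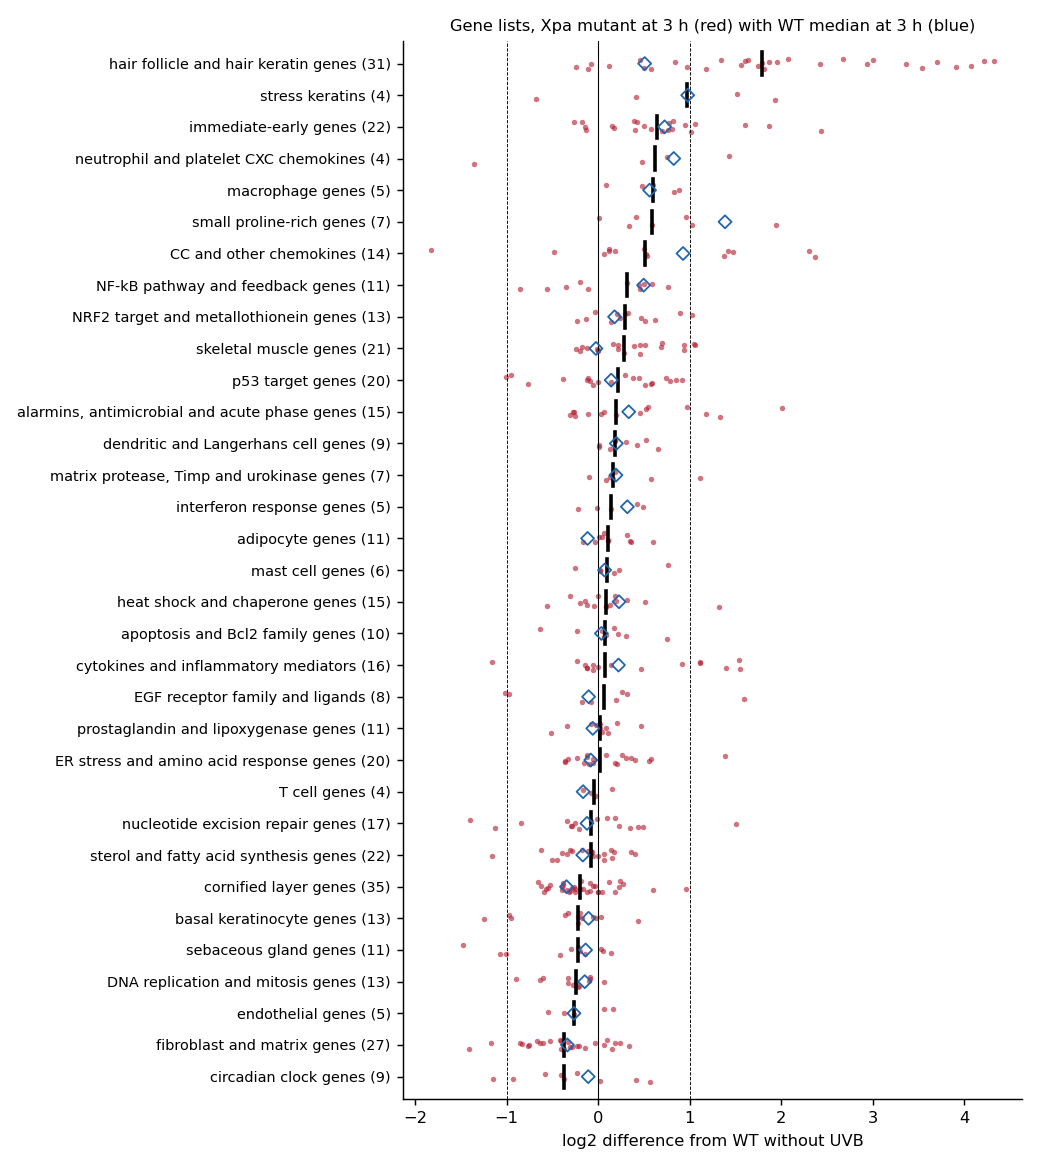
Red points are log2 differences of the Xpa mutant array at 3 h from the unirradiated WT array (x axis) for the compared members of each gene list (y axis, number in parentheses), for lists with at least 4. Black bars are medians and blue diamonds are the medians of the same genes in WT at 3 h. The hair list has medians of 1.79 in the mutant and 0.51 in WT, and the small proline-rich list has its bar at 0.59. Of the 31 hair genes, 21 passed the filter only through the mutant array, which selects for high mutant values.

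Of the 125 higher genes 53 were on one of the 36 lists, 22 of them on the hair list, and of the 94 lower genes 15. The share of all 7138 genes that lie on a list was not counted, so nothing is read from these counts. By chromosome, the highest shares of higher genes were on chromosome 16, with 13 of 218 (5.96%), and chromosome 11, with 27 of 627 (4.31%). Both chromosomes carry clusters of Krtap genes, and chromosome 11 also carries the type I keratins Krt25, Krt33a and Krt16. On chromosome 4, 2 of 447 genes were higher (0.447%). The remaining lists were for interferon response, heat shock, ER stress, apoptosis, cell cycle, sterol synthesis, prostaglandins and clock. Others were for T cells, dendritic cells, mast cells, fat and endothelium. Each held between 4 and 22 compared genes, with medians between -0.38 and 0.19. Over all genes 1.75% were higher and 1.32% lower, and in these lists together 4 genes were past 2-fold. These were Bag3 and Chac1, higher with bounds of 1.23-fold and 1.63-fold, and Srebf2 and Arntl, lower with bounds of 1.58-fold and 1.42-fold. Mmp3, a matrix protease, had 6.43, below background, and 7.55, with a bound of 1.46-fold.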

How the data were processed

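The authors deposited, per the file headers, scanner tables quantified with CodeLink Expression Analysis 5.0.0.31312, with 36227 spots per array, the mean intensity of each spot, its local background intensity and a quality flag. They also deposited a normalized intensity table, used as an alternative. Its columns had a median of 46.26, and no header or label used here names the software that made it. The normexp method of limma 3.58.1 (R 4.3.3; saddle-point, offset 50) removed local background. The 5 arrays were quantile normalized together and taken to log2. Later steps used Python 3.11.15, numpy 2.4.6 and pandas 2.3.3, and were tested on simulated data.

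Of the gene probes, 21615 were named by the platform annotation and 536 through an accession listed by RefSeq for GRCm38.p6. Another 681 had several names and 12135 none. A probe was above background without the scanner's low-signal flag. Between 23.5% and 25.2% of gene probes passed on the 3 arrays mainly used, and the number of arrays limits the precision. The lowest log2 value above background among the gene probes, named or not, was used in bounds. It was 7.06 on the mutant array at 3 h and 7.01 on the unirradiated array.

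The members, gene lists and alternatives were chosen with earlier results of these data known. Named genes are the 12 highest and 12 lowest above background on both arrays, the 8 largest bounds of at least 2 in each direction, up to 4 members past 2-fold per list (or the largest), and some fixed genes. Other members named were chosen after their values were seen. Besides the main setting, 11 others were tried, 1 of them chosen after seeing the data.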

Additional observations from a re-analysis of the deposited data

How the results depend on the processing

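No paired analysis was possible because each group held 1 array. The 125 higher and 94 lower genes became 309 and 351 in the authors' deposited normalized table (46.8% higher), 68 and 23 without background correction (74.7% higher), and 231 and 230 with an offset of 16 (50.1% higher). With both arrays required to be above background they became 23 and 17, and 193 and 151 without a filter on dim probes, where more genes enter. With the median of a gene's probes the lower count was 62 (66.7% higher), and scaling to the 75th percentile gave 149 and 77 (65.9% higher). In the main setting 57.1% were higher. The cause of these shifts was not tested beyond the settings themselves. Leaving out probes flagged for a contaminated local background, an alternative chosen after seeing the data, gave 85 and 70. The hair list kept a positive median under every alternative run, from 0.50 among genes above background on both arrays to 2.88 in the deposited table, and so did the immediate-early list, from 0.42 to 0.86. The fibroblast list stayed negative, from -0.46 to -0.29. A median counted as turned when it changed sign and its main size was at least 0.13, the SD between control spots. That of the endothelial list turned to 0.11 among 2 genes above background on both arrays, and to 0.061 without flagged probes. The neutrophil list turned to 0.22 without a filter, and the melanocyte list, which rests on Mitf, to 0.15 with the median of probes, as did Mitf. Without flagged probes the CXC chemokine list turned to -0.44, the NF-kB list to -0.11 and the p53 list to -0.026. Smaller medians also changed sign, the cytokine list from 0.07 to -0.05, the EGF family from 0.06 to -0.13, excision repair from -0.08 to 0.14 and ER stress from 0.02 to -0.06 at their farthest. Of the log2 differences of named genes under the alternatives, 787 kept their direction and side of 2-fold, 35 dropped under 2-fold (20 of them without background correction, among them Dusp6, Il6, Sprr2j-ps, Mmp3 and Bag3), 34 moved otherwise and 1 turned. Signal over background limits the 1650 of the 7138 genes that were dim on one array, which include 102 of those counted as higher and 77 of those counted as lower.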
